A study of Mus musculus with 115 samples.

Results

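The cells described here are 42 single granule cells of the mouse dentate gyrus that did not carry the retrograde EGFP label (EGFP- cells), 15 sampled after kainic acid (KA) and 27 after saline. They are the EGFP- cells with titles M201 to M272 among the 95 cells of the authors' count table after quality control (QC). Titles M1 to M48 were not part of the comparison, since they hold no saline cell. All mice were Rbp4-Cre transgenics. Their right ventral hippocampus received retroAAV-EGFP, a virus taken up by axons, so that an EGFP- cell was not labelled from the other side. The left hippocampus received AAV.cDIO-mCherry, a Cre-dependent virus that shows the injection site, mixed either with KA or with saline. Sampling took place 2 weeks later on the injected side, whatever the mCherry signal of the cell. Each library was made with Nextera XT from the cytosol of the cell drawn into a patch pipette. The labels name no molecular identifiers, and Nextera XT does not mark strand. The design text names 3 mice for the KA EGFP- cells and 3 for the saline EGFP- cells, but no label ties a cell to its mouse. It counts 57 saline EGFP- cells as passed, whereas the labels used here hold 41 of any QC result, 27 of them with counts. Each treatment is therefore a single sample of cells from unknown mice, and no test between treatments was made. The spread given is that between cells.

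Dentate granule cells relay input from the entorhinal cortex to hilar and CA3 neurons through their axons, the mossy fibres. KA is an agonist of glutamate receptors, and an injection into the hippocampus sets off seizures and later spontaneous epileptic activity in mice. Immediate early genes are transcribed within minutes of neuronal firing. Neuropeptides such as neuropeptide Y and the enkephalins are known to change in granule cells of epileptic rodents.

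The 42 libraries held a median of 3271137 counts in KA cells (1747042 to 10295504) and 4031151 in saline cells (1916928 to 11758759). The number of genes with a count had a median of 3707 in KA cells (1469 to 5720) and 4448 in saline cells (1718 to 9844). Among the measured genes, levels of pairs of cells had a median Pearson correlation across genes of 0.16 within KA, 0.24 within saline and 0.17 between treatments, with a highest value of 0.52. No library was a copy of another. Granule cell markers summed to 8.59 to 7966 CPM (counts scaled to 1000000 per cell) in KA cells, with a median of 4113, and to 502 to 10769 CPM in saline cells (median 6298). Some libraries did not hold granule cell RNA alone. In 5 KA and 8 saline cells the counts of 18 microglia markers exceeded those of 24 granule cell markers. Granule cell markers in these cells summed to 8.59 to 5486 CPM after KA (median 1183) and to 502 to 9724 CPM after saline (median 2467). Some of these cells thus lay within the range of the other cells, and others far below it. The most extreme was KA cell M214, with 8.59 CPM of granule cell markers, 7.36% of its counts from microglia markers and Apoe as its largest gene. The cells other than these 13 held 2117 to 7966 CPM of granule cell markers after KA (10 cells) and 5072 to 10769 CPM after saline (19 cells). The main results are given with and without these 13 cells. The ribosomal RNA gene CT010467.1 took a median of 0.569% of counts in KA cells and 1.70% in saline cells. Along the titles the treatments alternate in 6 runs, saline M201 to M208, KA M209 to M216, saline M217 to M232, KA M233 to M238, saline M241 to M264 and KA M265 to M272. Values were therefore also taken within titles M201 to M216 (8 KA and 6 saline cells) and within titles M217 to M272 (7 KA and 21 saline cells).

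**Figure D1:**
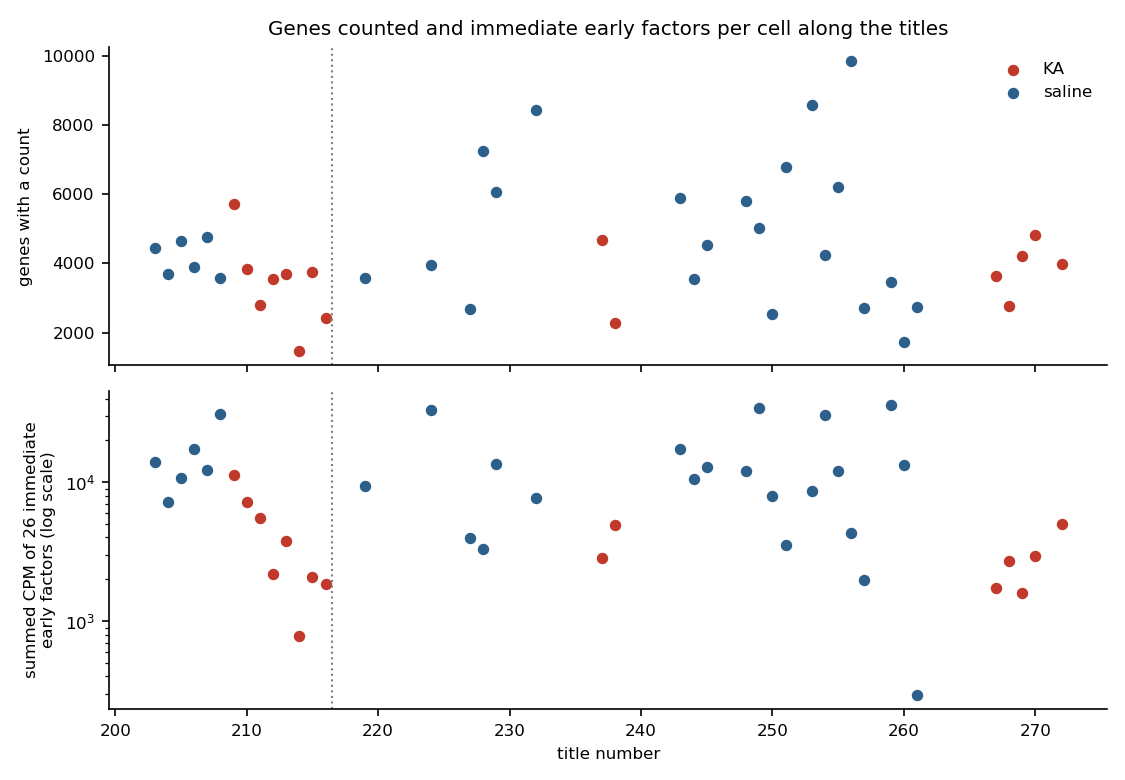
Number of genes with a count (top) and summed CPM of 26 immediate early transcription factors on a log axis (bottom) against title number, 1 point per cell, KA in red and saline in blue; the dotted line parts titles M201 to M216 from M217 to M272. Genes counted range from 1469 to 5720 in KA cells and from 1718 to 9844 in saline cells, and the summed level has a median of 2861 CPM in KA cells and 11959 CPM in saline cells.

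Levels below are log2(CPM+1), averaged over cells, and a difference is KA minus saline on that scale. Of 22870 genes, 7815 had a mean of the group means of at least 1 and are called measured. A gene was called higher after KA where the difference was at least 2 over all cells and at least 1 in each range of titles, and called lower by the mirrored rule. By this rule 117 measured genes were higher (1.5%) and 826 were lower (10.6%). The median difference of all measured genes was -0.55, and 32.5% of them lay above 0. KA cells also had fewer genes counted, and whether this gave the skew was not tested. In the 11 KA and 16 saline cells with 2500 to 5000 genes, with a median of 3755 genes after KA and 3647.5 after saline, the median difference was 0.06, and 588 genes were higher (8.13%) and 572 lower (7.9%). Relative to the median difference of -0.55, the split over all cells was 323 higher (4.13%) and 388 lower (4.96%). Centred on the median counted gene of each cell, it was 34 higher and 1691 lower. Without the 13 cells rich in microglia markers it was 317 higher (4.12%) and 1162 lower (15.1%). The lean toward lower calls was therefore absent among cells with a like number of genes. The leading genes are also given for these cells. Across the 7815 genes, the differences in the 2 ranges of titles had a Pearson correlation of 0.156. Of these genes, 3061 were lower and 1241 higher in both ranges.

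**Figure D2:**
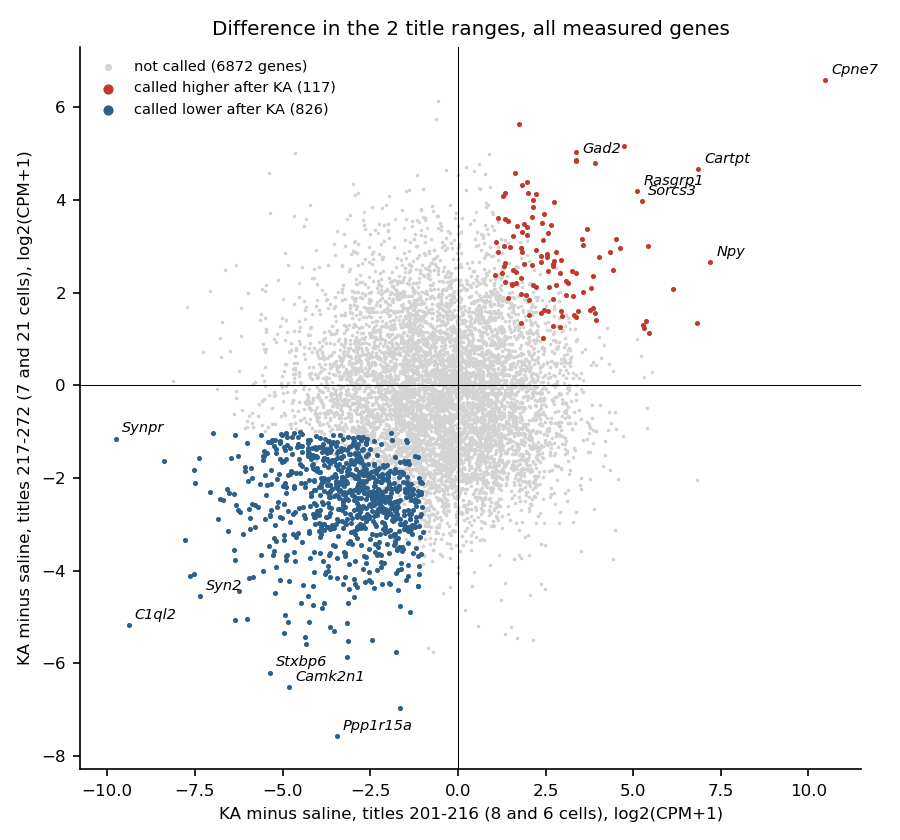
Difference KA minus saline in log2(CPM+1) within titles M201 to M216 (x axis) and within titles M217 to M272 (y axis), 1 point per measured gene; red marks the 117 genes called higher, blue the 826 called lower, grey the rest. Cpne7 stands apart at the top right, with 10.48 and 6.60, and C1ql2 at the lower left, with -9.39 and -5.18.

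The gene that set KA cells apart most was Cpne7, which encodes copine 7, a membrane-binding protein of the calcium-dependent copine family (chromosome 8, 123117374 to 123135182, plus strand, GRCm38). Its level ran from 0 to 12.77 in KA cells (median 9.30) and from 0 to 6.40 in saline cells (median 0). All KA cells but 1 exceeded the highest saline cell. The means were 9.08 (SD 3.20, n = 15) in KA cells and 0.64 (SD 1.67, n = 27) in saline cells, a difference of 8.43. Before thinning to a common depth, Cpne7 was counted in 8 of 8, 1 of 2 and 5 of 5 cells of the 3 KA runs, and in 1 of 6, 1 of 6 and 4 of 15 cells of the 3 saline runs. Pooled over cells it took 1617 CPM after KA (95% exact Poisson interval 1607 to 1627) and 6.06 CPM after saline (5.62 to 6.52). These intervals hold counting error only. With each cell thinned to 1000000 counts, Cpne7 was counted in 14 of the 15 KA cells (95% Clopper-Pearson interval 68.1 to 99.8%) and in 4 of the 27 saline cells (4.19 to 33.7%). Such intervals, here and below, treat cells as independent draws, although the mouse of each cell is unknown. The genes they are given for were chosen by their difference in these same cells. Intervals that do not overlap are therefore no test of the treatment. Without the 13 cells rich in microglia markers the difference in Cpne7 was 9.00.

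After Cpne7, the largest increases were those of Cartpt and Npy, described with the neuropeptides, and of Rasgrp1, a Ras activator driven by diacylglycerol and calcium. Rasgrp1 ranged from 0 to 11.25 in KA cells (median 5.38) and from 0 to 7.66 in saline cells (median 0). The groups overlapped, and 7 KA cells lay above the highest saline cell. Its means were 5.66 after KA (SD 4.61) and 0.78 after saline (SD 2.06), a difference of 4.88. Slc2a13, a proton-coupled myo-inositol transporter, differed by 4.55, with means of 6.49 after KA (SD 3.69) and 1.94 after saline (SD 3.09). Sorcs3, a sorting receptor of the Vps10p family, differed by 4.48, with means of 4.93 after KA (SD 3.93) and 0.45 after saline (SD 1.58). Crip2, a LIM-domain protein, differed by 4.42, Ppat, the enzyme that starts purine synthesis, by 4.08, and Acsl6, a ligase that activates fatty acids, by 4.00. Ppat shares exon sequence with Paics and Acsl6 with Gm12224, so that reads there cannot be assigned without strand.

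Gad2, which encodes the GABA-synthesising enzyme GAD65, was counted in 8 of the 15 KA cells and 4 of the 27 saline cells after thinning. Its level ran from 0 to 11.27 in KA cells (median 2.02) and from 0 to 5.32 in saline cells (median 0), with 7 KA cells above all saline cells. The difference was 3.92 (means 4.31 after KA with SD 4.61, 0.39 after saline with SD 1.14), and 5.64 without the 13 cells rich in microglia markers. Gad1, which encodes the other GABA-synthesising enzyme GAD67 and is known to be made by granule cells, was not called. Its means were 7.51 after KA (SD 4.27) and 6.87 after saline (SD 3.33), with differences of -2.25 in titles M201 to M216 and 2.85 in titles M217 to M272. The vesicular GABA transporter gene Slc32a1 had no count in any KA cell, and the interneuron genes Sst, Vip, Dlx1 and Htr3a had none either. Of 16 interneuron markers in the table, a KA cell had 0 to 4 counted after thinning (median 2) and a saline cell 0 to 10 (median 3). Their summed level was 0 to 4306 CPM in KA cells (median 1138) and 0 to 2826 CPM in saline cells (median 535). Of the 5 measured markers, Gad2 was the 1 called higher.

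The rest of the 15 largest increases were Prex1, a Rac activator (3.78), Mtfr1l, a mitochondrial fission regulator (3.72), Efr3b, which anchors a lipid kinase at the plasma membrane (3.71), Osbpl3, an oxysterol-binding protein (3.52), and Pdgfb, a platelet-derived growth factor chain (3.42). Osbpl3 was counted in 7 of the 15 KA cells and in 0 of the 27 saline cells, which leaves a share of up to 12.8% at the upper Clopper-Pearson bound. In each of these genes at least 1 KA cell had no count. All 15 genes were also called higher among cells with 2500 to 5000 genes, by 3.99 to 9.46, and without the cells rich in microglia markers, by 3.48 to 9.00. With counts pooled over cells, Mtfr1l (436 CPM after KA and 144 CPM after saline) and Pdgfb (187 CPM after KA and 74.1 CPM after saline) fell short of a difference of 2.

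**Figure D3:**
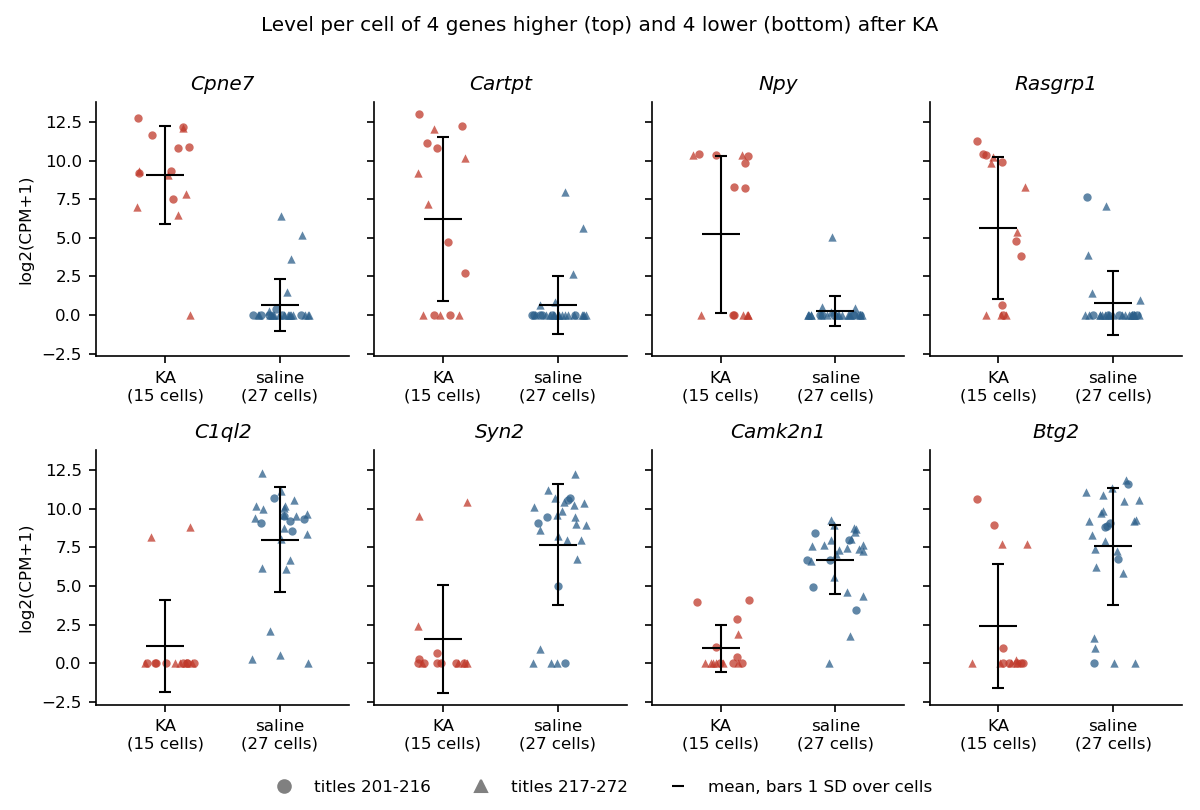
Level in log2(CPM+1) of 4 genes called higher (top row) and 4 called lower (bottom row), KA cells left and saline cells right, circles for titles M201 to M216 and triangles for titles M217 to M272, with mean and 1 SD over cells. Cpne7 has a mean of 9.08 in KA cells and 0.64 in saline cells, and C1ql2 a mean of 1.13 in KA cells and 8.0 in saline cells.

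Among the 826 genes called lower, the largest difference was that of C1ql2, a C1q-like protein that granule cells secrete at mossy fibre synapses (chromosome 1, 120340582 to 120343174, plus strand). It ran from 0 to 8.82 in KA cells (median 0) and from 0 to 12.33 in saline cells (median 9.33). No KA cell reached the saline median. C1ql2 was counted after thinning in 2 of the 15 KA cells (1.66 to 40.5%) and 25 of the 27 saline cells (75.7 to 99.1%), and both KA cells came from titles M265 to M272. Of the 14 KA cells with a Cpne7 count, 12 lacked C1ql2, whereas 22 of the 27 saline cells had C1ql2 without Cpne7. These are the genes with the largest difference in either direction, so this pairing is a description of the rule that chose them.

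Stxbp6, or amisyn, which binds the SNARE proteins of vesicle fusion, had a highest level of 0.21 in any KA cell, against a median of 7.93 in saline cells (0 to 10.36). It was counted after thinning in 0 of the 15 KA cells, a share of up to 21.8%, and in 21 of the 27 saline cells. Camk2n1, an inhibitor of the kinase CaMKII, stayed at or below 4.10 in KA cells (median 0), whereas saline cells had a median of 7.42 (0 to 9.29). Its means were 0.95 after KA (SD 1.51) and 6.69 after saline (SD 2.24), a difference of -5.74 that lay at -4.81 in titles M201 to M216 and -6.51 in titles M217 to M272. Cdk14, a cyclin-dependent kinase, had its only KA level above 0 at 2.42, with a saline median of 6.07. Syn2, a synapsin that coats synaptic vesicles, differed by -6.13, with means of 1.55 after KA (SD 3.49) and 7.69 after saline (SD 3.92). A single KA cell gave 91.1% of the pooled Syn2 counts of that treatment. Pooled levels were therefore closer, at 253.2 CPM after KA and 733 CPM after saline. Syn2 shares exon sequence with Timp4, an inhibitor of metalloproteases, which was itself called higher (2.12), so that reads of this stretch cannot be assigned without strand.

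The 15 largest decreases also held Gm13889 (-5.57), Camkk1, a kinase that activates other CaM kinases (-5.39), Ppp1r15a, the stress-induced phosphatase subunit GADD34 (-5.29), the orphan receptor gene Gpr19 (-5.00), the vesicle protein gene Synpr (-4.98), the long noncoding RNA gene Dbpht2 (-4.89), Tiparp, an ADP-ribosyltransferase (-4.88), and Ano3, a member of the anoctamin family (-4.83). The remaining members, Btg2 and Jun, belong to the immediate early genes. Synpr rested on the titles: its mean was 0.06 in KA titles M209 to M216, 4.15 in M233 to M238 and 7.07 in M265 to M272, against 9.82, 7.18 and 7.46 in the 3 saline runs. Without KA M209 to M216 the Synpr difference was -1.69. It was not called among cells with 2500 to 5000 genes (-4.08), where the other 14 were, by -7.27 to -4.42. Without the 13 cells rich in microglia markers all 15 were called. With counts pooled over cells, Syn2, Camkk1, Synpr and Jun came closer to 0 than -2. Exon sequence is shared by Gm13889 with Gm27027, Ppp1r15a with Tulp2, Jun with Junos, Gpr19 with 2810454H06Rik, Tiparp with 4931440P22Rik and Ano3 with Muc15.

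Immediate early transcription factors formed the gene list with the lowest median. Of 26 factors, 24 were measured, and 16 were called lower and 0 higher, where 10.6% of all measured genes were called lower and 1.5% higher. Their median difference was -2.54, beside -0.55 for all measured genes. Within titles M201 to M216 the median was -3.82 (all genes -0.63), and within M217 to M272 it was -2.05 (all genes -0.41). Of the 24 factors, 20 were lower in both ranges, beside 3061 of 7815 measured genes. Summed over the 26 factors, KA cells held 777 to 11324 CPM (median 2861) and saline cells 296 to 35832 CPM (median 11959), so the groups overlapped. After thinning, a KA cell had 4 to 19 of the factors counted (median 9) and a saline cell 5 to 23 (median 18). Among cells with 2500 to 5000 genes the numbers were 5 to 14 (median 10) after KA and 5 to 21 (median 17) after saline. There the list's median difference was -2.76, beside 0.06 for all genes, and 13 of 22 measured factors were called lower (59.1%, all genes 7.9%). Without the cells rich in microglia markers the list's median was -3.67. Of 23 factors, 16 were called lower (69.6%, all genes 15.1%) and 1, Klf10, was called higher.

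**Figure D4:**
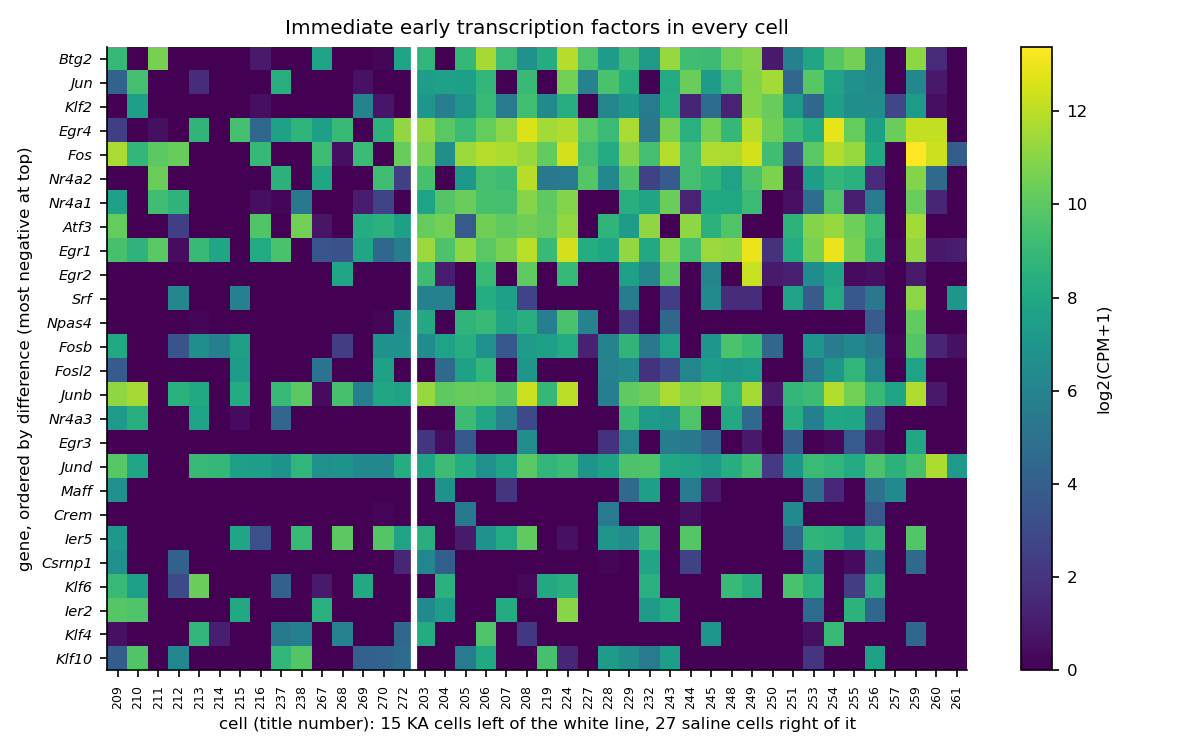
Level in log2(CPM+1) of 26 immediate early transcription factors (rows, ordered by difference with the most negative on top) in every cell (columns, by title number), with 15 KA cells left of the white line and 27 saline cells right of it. Btg2 was counted after thinning in 4 of the 15 KA cells and 24 of the 27 saline cells, and Jund in 13 KA and 27 saline cells.

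Fos, the partner of Jun in the AP-1 factor, ran from 0 to 11.67 in KA cells (median 8.88) and from 0 to 13.37 in saline cells (median 10.97). Only 1 KA cell lay above the saline median. Its means were 5.26 after KA (SD 5.06) and 9.81 after saline (SD 3.14), a difference of -4.55. Egr4, a zinc finger factor, had means of 5.24 after KA (SD 4.28) and 9.90 after saline (SD 2.61), a difference of -4.67. Btg2, an antiproliferative gene induced by activity, differed by -5.15 (means 2.42 after KA with SD 4.02, 7.57 after saline with SD 3.78). Jun differed by -4.84 and Klf2, a Krüppel-like factor, by -4.82. Klf2 was counted after thinning in 2 of the 15 KA cells and 25 of the 27 saline cells. The orphan nuclear receptors Nr4a2, Nr4a1 and Nr4a3 differed by -4.05, -3.74 and -2.01. Egr1 (-3.16), Egr2 (-3.14), Atf3 (-3.38), Npas4 (-2.64), Fosb (-2.44), Fosl2 (-2.41), Junb (-2.22) and Srf (-2.72), the serum response factor, were called as well. Npas4 was at 0 in most cells of both treatments, and its difference was -6.99 in titles M201 to M216 and -1.03 in M217 to M272. Junb was near the limit, and among cells with 2500 to 5000 genes it (-1.73), Fosl2 (-1.70) and Nr4a3 (-0.83) were not called. Members that were not called included Jund (-1.59), whose means were 6.71 after KA (SD 2.93) and 8.29 after saline (SD 1.66), Klf6 (-0.09), Ier2 (-0.06) and Klf10 (1.18). Of the measured Fos, Jun, Egr and Nr4a genes, Jund alone was not called, and Egr3 had no count in any KA cell. Relative to the median of all genes, Fosb, Fosl2, Junb and Nr4a3 lay between -1.89 and -1.46.

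The promoters of this list were searched, since its members moved together and some of these factors bind promoters of the others. The window was the 250 bases before the start of each RefSeq transcript (GRCm38.p6), in 32851 windows of 27025 genes. The motifs were the cAMP response element (CRE) TGACGTCA, the AP-1 site TGANTCA, the Egr site GCGNGGGCG and the CArG box bound by serum response factor, all on both strands. The CArG box was counted as a pair of C, 6 bases that are A or T, and a pair of G. No motif overlaps another in the sequences printed. The Egr site lay in the window of 9 of the 21 measured factors with a window (42.9%), in 5.33% of all genes and in 11.5% of the 6090 measured genes that had a window. The CRE was found in 2 of the 21 (9.52%) and in 1.77% of all genes, the CArG box in 2 (9.52%) and 1.62%, and the AP-1 site in 1 (4.76%) and 7.82%. Of the measured genes with a window, 3.51% had the CRE, 1.3% the CArG box and 5.32% the AP-1 site. Of the genes called higher, 17.4% of 92 had the Egr site, and of those called lower 15.6% of 634. The windows shown belong to 3 called factors with an Egr site, and a short stretch of Cartpt is shown because it holds the same CRE letters as Btg2 although the difference of these genes ran in opposite directions. Motif letters are in capitals, and all are written 5′ to 3′ on the gene's strand.
Btg2, chr1:134079156-134079405, minus strand: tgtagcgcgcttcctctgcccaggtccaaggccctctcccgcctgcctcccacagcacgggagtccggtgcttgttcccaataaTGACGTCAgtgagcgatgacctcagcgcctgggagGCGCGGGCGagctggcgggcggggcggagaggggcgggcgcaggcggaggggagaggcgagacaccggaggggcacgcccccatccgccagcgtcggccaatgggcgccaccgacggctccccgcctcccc
Fosb, chr7:19310046-19310295, minus strand: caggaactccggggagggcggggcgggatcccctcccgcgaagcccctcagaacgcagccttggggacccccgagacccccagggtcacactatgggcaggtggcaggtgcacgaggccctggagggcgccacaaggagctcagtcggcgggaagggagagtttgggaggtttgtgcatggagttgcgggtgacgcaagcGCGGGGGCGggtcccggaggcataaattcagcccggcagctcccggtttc
Nr4a1, chr15:101266596-101266845, plus strand: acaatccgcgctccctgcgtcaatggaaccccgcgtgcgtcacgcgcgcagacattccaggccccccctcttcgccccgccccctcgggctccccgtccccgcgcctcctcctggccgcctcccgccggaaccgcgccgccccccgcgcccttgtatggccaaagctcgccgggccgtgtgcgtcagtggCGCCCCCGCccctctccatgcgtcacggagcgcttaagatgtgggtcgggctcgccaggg
Cartpt, chr13:99900778-99900805, minus strand: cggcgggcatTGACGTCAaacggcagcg
The Egr letters begin 131 bases before the start in Btg2, 50 in Fosb and 60 in Nr4a1, and the CRE 166 bases before it in Btg2 and 112 in Cartpt. A match of letters does not show that a factor was bound.

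Immediate early effectors, the enzymes and synaptic proteins induced along with these factors, had a median difference of -1.42 over 23 measured genes of 26. Of these, 5 were called lower (21.7%) and 0 higher, beside 10.6% and 1.5% of all measured genes. Arc, which regulates receptor uptake at synapses, ran from 0 to 10.95 in KA cells (median 0) and from 0 to 12.05 in saline cells (median 8.65). It was counted after thinning in 6 of the 15 KA cells and 24 of the 27 saline cells, and its means were 2.65 after KA (SD 3.74) and 6.99 after saline (SD 4.27), a difference of -4.34. Fos and Arc were both counted in 4 of the 15 KA cells and in 23 of the 27 saline cells. The pseudokinase gene Trib1 (-3.29) and the stress-response genes Gadd45g (-3.25) and Gadd45b (-2.61) were called, as was Arl4d. Gadd45g (-3.22) and Gadd45b (-1.87) were not called among cells with 2500 to 5000 genes. Bdnf, the activity-regulated neurotrophin, was not called, with a difference of 0.42. Of 35 measured heat shock genes, 4 were called lower, a share near the 10.6% of all genes, with Dnajb4 (-4.28), Dnajb1 (-4.22) and Hspa5 (-3.35) the largest. That list had a median of -1.29 over all cells and of -0.26 among cells with 2500 to 5000 genes. There 7 of 36 were called lower (19.4%, all genes 7.9%).

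Over all cells, neuropeptide and granin genes had the highest median of the lists with 5 or more measured members, 1.28 over 16 measured of 28, and 1.37 among cells with 2500 to 5000 genes. Cartpt, Npy and Penk were called higher (18.8%, all genes 1.5%) and Pdyn lower (6.25%, all genes 10.6%). Without the 13 cells rich in microglia markers the list's median was 0.58 over 17 measured genes. It was then not the highest, with sorting and trophin receptors at 0.70. Of the 17 genes, 5 were called higher (29.4%, all genes 4.12%) and 2 lower (11.8%, all genes 15.1%). Cartpt, the precursor of the CART peptide, ran from 0 to 13.04 in KA cells (median 7.21) and from 0 to 7.95 in saline cells (median 0), and 7 KA cells lay above all saline cells. It was counted after thinning in 10 of the 15 KA cells and 5 of the 27 saline cells. Its differences were 6.84 in titles M201 to M216 and 4.67 in M217 to M272. Npy, which encodes neuropeptide Y, was counted in 8 of the 15 KA cells and 2 of the 27 saline cells. Its level ran from 0 to 10.44 in KA cells (median 8.26) and from 0 to 5.04 in saline cells (median 0), a difference of 4.99. All 8 KA cells with Npy lay above the highest saline cell. By runs, the Npy means were 7.20, 10.38 and 0.00 in KA cells, so in M217 to M272 the difference of 2.67 came from the 2 cells of M233 to M238, and the other 5 KA cells of that range had no Npy. Penk, the enkephalin precursor, was counted in 7 of the 15 KA cells and 4 of the 27 saline cells, and the highest cell of each treatment had 11.95 after KA and 10.97 after saline. A single KA cell gave 82.6% of the pooled Penk counts of its treatment. The Penk difference was 2.53, and without KA M209 to M216 it was 1.80.

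These peptide genes were counted in varying combinations in KA cells. Of Cartpt, Npy and Penk, 3 KA cells had all 3 counted, 5 had 2, 6 had 1 and 1 had none. Among saline cells, 0 had all 3, 2 had 2, 7 had 1 and 18 had none. Cartpt and Npy were counted together in 6 KA cells and in 0 saline cells. Gad2 was counted in 6 of the 8 KA cells with Npy and in 2 of the 7 without it. Pdyn, the dynorphin precursor, had no count in any KA cell and was counted in 9 of the 27 saline cells, a difference of -2.32 that missed 2 relative to the median of all genes (-1.77). Genes for secretory granule proteins and processing enzymes were not called over all cells, and their differences were near 0 in the earlier range of titles. Chga, chromogranin A, differed by 0.24 in titles M201 to M216 and 4.72 in M217 to M272. Cpe, a carboxypeptidase that trims peptides, differed by 0.12 and 3.61, Scg2 by 0.08 and 2.86, and Vgf by 0.59 and 2.20. Chga (4.13) and Cpe (4.05) were called higher among cells with 2500 to 5000 genes. In 5 KA cells Chga lay above the highest saline cell, and in 7 Cpe did. The list of sorting and trophin receptors, which holds Sorcs3 as its only called member of 10, had a median of 0.53 over all cells. It was 2.20 among cells with 2500 to 5000 genes, where 5 of 11 were called higher (45.5%, all genes 8.13%).

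Granule cell markers were lower on balance after KA, with a median difference of -1.73 over 23 measured genes of 24 (all measured genes -0.55). Where 10.6% of all measured genes were called lower and 1.5% higher, 8 of the 23 were called lower (34.8%) and 0 higher. Beside C1ql2 and Stxbp6 these were Plk5, a polo-like kinase without counts in any KA cell (-3.57), Sema5a, a semaphorin (-3.21), the transcription factor Rfx3 (-3.11), Dock10, an activator of small GTPases (-2.76), Lrrtm4, a postsynaptic organiser (-2.66), and C1ql3 (-2.46). Among cells with 2500 to 5000 genes the median was -0.67. Of 22 markers there, C1ql2 and Stxbp6 were called lower, and Trpc6 (2.22) and Pdzd2 (2.13) higher. These shares of 9.09% each were near the 7.9% lower and 8.13% higher of all genes. Without the cells rich in microglia markers the median was -2.03, with 11 called lower of 23 (47.8%, all genes 15.1%). Those cells were left out by the summed counts of these same granule cell markers, Prox1 among them. Values of the markers without those cells are therefore no separate check. Calb1, the calcium buffer calbindin, split by titles. It differed by -7.72 in titles M201 to M216 and by 1.69 in M217 to M272, with overall means of 5.51 after KA (SD 5.07) and 8.69 after saline (SD 2.85). Prox1, the transcription factor that defines granule cells, was counted in 7 of the 15 KA cells and 20 of the 27 saline cells, a difference of -1.77, which was -0.62 among cells with 2500 to 5000 genes and -2.90, called lower, without the cells rich in microglia markers. Zbtb20, another factor of hippocampal neurons, was counted in 13 of the 15 KA cells and 26 of the 27 saline cells (-0.32). Of the markers of mossy cells, 1 of 12 was measured, Glipr1 (-1.06), and of those of CA3 and CA1 pyramidal cells 6 of 16, with Cpne4 called lower (-2.71). Immature neuron markers were mostly unmeasured, 3 of 17, and of these Stmn1 (-3.63) and Sox11 (-2.38) were called lower.

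Calcium-binding and CaM kinase genes had a median difference of -1.60 over 33 measured of 42. Of these, 10 were called lower (30.3%, all genes 10.6%) and Cpne7 alone higher. Among cells with 2500 to 5000 genes the median was -1.33. Of 34 genes there, 10 were called lower (29.4%, all genes 7.9%) and 2 higher (5.88%, all genes 8.13%). Hpcal1 (-1.02), Ppp3cb (-0.87) and Camk1d (-1.61) were not called there, whereas Ppp3ca (-2.16), Pcp4 (-3.03) and Atp2b4 (-2.09) were called lower. Ncald, a neuronal calcium sensor, had means of 4.44 after KA (SD 5.18) and 9.23 after saline (SD 2.52), a difference of -4.79. Camk2b, a CaMKII subunit, differed by -3.12, Rcan1, an inhibitor of calcineurin, by -2.93, Hpcal1, a neuronal calcium sensor, by -2.47, and Nrgn, the calmodulin-binding neurogranin, by -2.46. Nrgn was counted in 13 of the 15 KA cells and 27 of the 27 saline cells, with medians of 7.61 after KA and 8.77 after saline. The calcineurin gene Ppp3cb (-2.02) and the kinase gene Camk1d (-2.01) lay at the limit of a call. Calm2, which encodes calmodulin, was not called, with means of 10.08 after KA (SD 3.03) and 11.68 after saline (SD 0.82). The copine genes differed among themselves. Cpne6 differed by -0.55, with means of 8.52 after KA (SD 3.63) and 9.06 after saline (SD 3.13), Cpne4 by -2.71, and Cpne9 was not measured, whereas Cpne7 differed by 8.43.

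**Figure D5:**
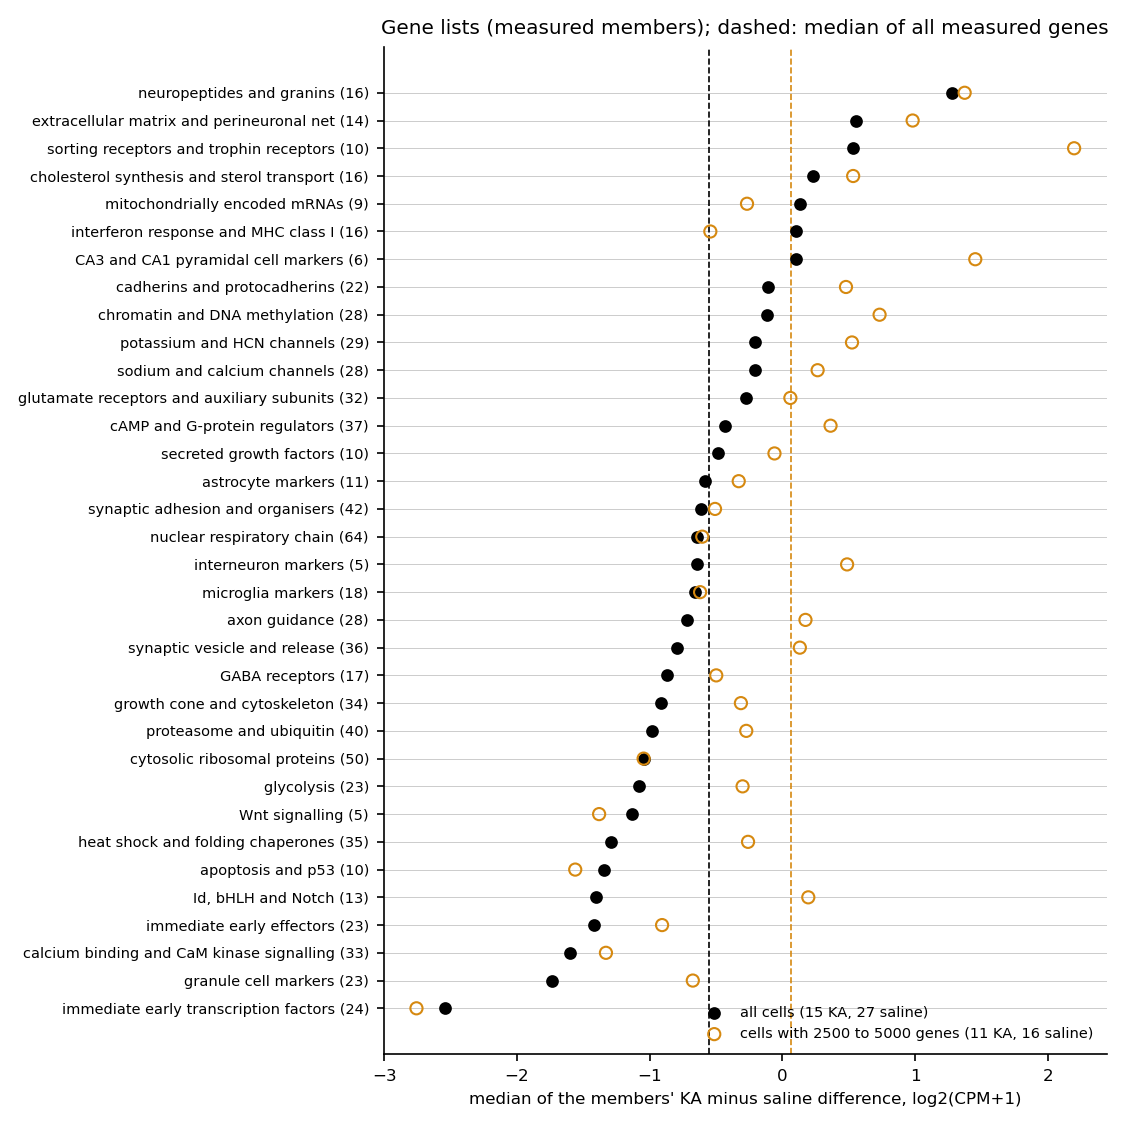
Median of the members' difference KA minus saline in log2(CPM+1) for each gene list with at least 5 measured members (number in brackets), filled for all cells and open for cells with 2500 to 5000 genes; dashed lines mark the medians of all measured genes, -0.55 and 0.06. Immediate early transcription factors lie lowest under both settings, at -2.54 and -2.76, and neuropeptides and granins at 1.28 and 1.37.

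Calls among genes of the synapse and the cytoskeleton are to be read beside the 10.6% of all measured genes called lower and the 1.5% called higher. Of 36 measured vesicle and release genes, 7 were called lower and 0 higher (median -0.79), among them Doc2a, a calcium sensor of release (-3.49). Of 42 measured adhesion genes and organisers, 8 were lower and 1 higher, with Cadm1 (-3.79) and Dscaml1 (-3.19) lower and Lingo1, an inhibitor of axon growth, higher (2.96). Growth cone and cytoskeleton genes had 7 lower and 2 higher of 34, with Marcks (-4.70), Marcksl1 (-3.86), Stmn1 (-3.63) and Stmn4 (-3.26) lower and Tubb2a and Map6 higher. Semaphorin Sema4a, counted in 4 of the 15 KA cells and 0 of the 27 saline cells, and Plxna2 were the 2 axon guidance genes called higher, beside 2 called lower. Of 32 measured genes of glutamate receptors and their partners, 5 were lower and 1, Grm7, higher. Olfm1, a secreted protein bound to AMPA receptors, had levels of 0 to 11.91 in KA cells (median 8.46) and of 2.62 to 13.09 in saline cells, a difference of -3.76. No KA cell reached the saline median of Olfm1. Fgf13, which modulates sodium channels, differed by -4.39 and the sodium channel subunit gene Scn3b by -3.16. Potassium channel genes had 1 called lower of 29 and a median of -0.20. The adenylyl cyclase gene Adcy1 (-3.42) and Rgs14 (-3.32), a regulator of G-protein signalling, were lower, whereas Rasgrp1, Prex1 and Pde4a were higher. The protocadherin genes split, with Pcdh19 (-4.26) and Pcdh17 (-2.55) lower and Pcdh15 (2.72) higher. In the cells with 2500 to 5000 genes, Doc2a (-2.46), Rgs14 (-2.14) and Pcdh17 (-1.09) were not called. The vesicle list had a median of 0.13 in those cells, with 5 called lower and 1 higher of 35, and the potassium channel list one of 0.53.

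Of the housekeeping lists, glycolysis genes had a median of -1.08 over all cells and -0.30 among cells with 2500 to 5000 genes. The phosphofructokinase gene Pfkl (-3.23) and the neuronal glucose transporter gene Slc2a3 (-3.02) were called lower, and Pfkfb2 (2.61) and the inositol transporter gene Slc2a13 higher. Pfkl was not called among cells with 2500 to 5000 genes (-2.02). Cytosolic ribosomal protein genes had a median of -1.05 over all cells, with 6 of 50 called lower (12%), near the 10.6% of all genes. Among cells with 2500 to 5000 genes the median was -1.04, with 9 of 48 called lower (18.8%, all genes 7.9%). Without the cells rich in microglia markers, 17 of 49 were called lower (34.7%, all genes 15.1%), with a median of -1.78. Respiratory chain genes of the nucleus had a median of -0.64 with 5 of 64 called lower, and 0 of 9 measured mitochondrially encoded mRNAs was called. Snhg11, a noncoding RNA of neurons, was called higher, with means of 9.38 after KA (SD 4.34) and 6.79 after saline (SD 3.30), and it was the largest gene of 3 KA cells.

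Among regulators of transcription and survival, Smarca2, the ATPase of a chromatin remodelling complex, was called lower, with means of 1.18 after KA (SD 3.15) and 5.77 after saline (SD 3.50), a difference of -4.59. Its paralogue Smarca4 was called lower too (-2.18), and the histone deacetylase gene Hdac9 was the 1 gene called higher (2.37) of 28 measured chromatin genes. Where 10.6% of all measured genes were called lower and 1.5% higher, 3 of 10 measured apoptosis and p53 genes were called lower and 0 higher. These were Apaf1, the core of the apoptosome (-3.48), Mdm2, which restrains p53 (-2.30), and Mcl1, a survival protein of the Bcl2 family (-2.22). Of 13 measured Id, bHLH and Notch genes, Bhlhe40 (-2.45), Bhlhe22 (-2.08) and the Notch ligand gene Jag1 (-2.37) were called lower (23.1%, all genes 10.6%). Jag1 had no count in any KA cell. In the extracellular matrix list, 1 of 14 was called higher, the proteoglycan gene Spock3 (2.12), and 2 lower, with Adamts1, a secreted metalloprotease, at -4.07. Bhlhe40 (-1.21), Bhlhe22 (-1.08), Mcl1 (-1.56) and Adamts1 (-2.58) were not called among cells with 2500 to 5000 genes, where the Id, bHLH and Notch list had a median of 0.20. The genes of GABA receptors and their partners held 2 called lower of 17, Gabarapl1 (-2.81) and Gabarap (-2.15), and neither is a receptor subunit. Of 28 measured sodium and calcium channel genes, 5 were lower and 1, the P/Q-type calcium channel gene Cacna1a, higher (2.39). The remaining lists held 0 to 4 called genes each. Medians were -0.98 for 40 proteasome genes, with 3 called lower and 1 higher, -1.14 for 5 Wnt genes and -0.48 for 10 growth factors. They were 0.23 for 16 cholesterol genes, 0.10 for 16 interferon and MHC genes and 0.94 for 3 reactive astrocyte genes. Of 10 endothelial and mural markers, 1 was measured (-0.02), and of 2 measured sex-linked transcripts 0 were called over all cells. The Y-linked gene Eif2s3y (1.31 over all cells) was called higher among cells with 2500 to 5000 genes (3.32), where it was counted in 9 of the 11 KA cells and 6 of the 16 saline cells. Without the cells rich in microglia markers it was called higher too (3.15). The sex of each cell's mouse is not used here, so sex and treatment cannot be told apart.

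Glial markers ranged widely between cells in both treatments. Of 18 microglia markers, all were measured and 0 were called in either direction, with a median difference of -0.66. Their summed level ran from 4.27 to 84584 CPM in KA cells (median 1229) and from 0 to 67771 CPM in saline cells (median 632), and 8 KA and 12 saline cells had at least 0.1% of their counts there. No marker of the list was at 0 in all cells of a treatment. Of 11 measured astrocyte markers, the metallothionein gene Mt2 was called higher (2.11) and the glutamate transporter gene Slc1a3 lower (-2.73). Astrocyte markers summed to 304 to 43471 CPM in KA cells (median 1525) and to 6.42 to 5287 CPM in saline cells (median 1602), with Aqp4 at 0 in every KA cell. The highest sum was that of KA cell M214, where Apoe, a member of the list, alone took 4.33% of counts and microglia markers 7.36%. The next, KA cell M209 (23433 CPM), had 8.46% of its counts from microglia markers. The reactive astrocyte gene Gfap was not called, with differences of 2.98 in titles M201 to M216 and -1.27 in M217 to M272. Oligodendrocyte lineage markers summed to 0.183 to 1732 CPM in KA cells (median 533) and to 0 to 1710 CPM in saline cells (median 78.5). Olig1, Olig2, Sox10 and Mag were at 0 in every KA cell, and 0 of 4 measured members was called over all cells. Mbp (2.70) and Lhfpl3 (2.63) were called higher among cells with 2500 to 5000 genes, Lhfpl3 with no count in any saline cell there. The part of glial RNA in genes not on these lists was not tested beyond leaving out the 13 cells.

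The EGFP+ cells of the same titles, 3 after KA and 5 after saline, share no cell with the groups above. Of the 15 genes with the largest increase, 13 also had a positive difference there (median 4.43), beside 52.9% of all measured genes. Cpne7 differed by 8.88, Sorcs3 by 9.53, Slc2a13 by 6.33 and Npy by 5.91, whereas Ppat lay at -1.11 and Osbpl3 at 0. Of the 15 with the largest decrease, 8 had a negative difference (median -0.07). C1ql2 (-5.14), Gm13889 (-5.13), Ppp1r15a (-4.18), Camk2n1 (-3.99) and Synpr (-3.70) were lower there as well, whereas Btg2 (5.05) and Dbpht2 (2.72) lay above 0. Fos differed by -0.57, Arc by 5.81 and Nr4a1 by 4.61 in the EGFP+ cells. With 3 cells against 5, these values carry no measure of error.

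The 21 KA EGFP- cells of titles M1 to M48 have no saline cells of their own and had more genes counted, a median of 6974. Their mean Cpne7 level was 7.27 (SD 4.25), beside 9.08 in KA cells and 0.64 in saline cells of titles M201 to M272. Camk2n1 had 2.45 (SD 3.19) there, beside 0.95 in the later KA cells and 6.69 in saline cells. Gm13889 had 2.52 (SD 2.71), beside 2.24 in the later KA cells and 7.81 in saline cells. Syn2 stood at 7.30 (SD 3.26), beside 1.55 in KA cells and 7.69 in saline cells of titles M201 to M272. Fos stood at 8.70 (SD 3.15), beside 5.26 in the later KA cells and 9.81 in saline cells, and Arc at 7.32 (SD 3.80), beside 2.65 in the later KA cells and 6.99 in saline cells. The levels of Cpne7, Camk2n1 and Gm13889 in the earlier KA cells were thus nearer to the later KA cells, and those of Syn2, Fos and Arc nearer to saline cells. Title series and number of genes counted differ together between these KA groups and cannot be told apart.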

How the data were processed

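Single-cell RNA-seq libraries of 42 EGFP- cells were compared. The submitters' processing notes list the build GRCm38 and the tools featureCounts, STAR, kallisto and Trimmomatic, with versions not given in the sources used here. The authors deposited whole-number read counts per gene symbol for 95 QC-passed cells, and a normalized signal for these cells whose scaling is not stated. The deposited counts were used, and the authors' signal served as an alternative. The 92 spike-in rows (0 counts in these cells) were left out. Of the 42 cells, 9 are labelled as failed QC although they are in the QC-passed table (4 KA, 5 saline). In the later titles, all 11 labelled as passed but without counts here follow directly a title labelled as failed, so labels may be displaced by 1 title, and treatment and EGFP class, taken from these labels, are then in doubt where they change. Without the 6 cells (3 KA) whose label differs from that of the title before, 161 genes were higher and 992 lower.

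Counts of each cell were scaled to a total of 1000000 (CPM) and averaged as log2(CPM+1), with a pseudocount of 1. The pseudocount understates changes between low levels. Differences of such averages lay on either side of those from counts pooled over cells. Mtfr1l differed by 3.72 and Syn2 by -6.13, against 1.59 and -1.53 with pooled counts. Npy differed by 4.99 and Osbpl3 by 3.52, against 8.39 and 7.41 with pooled counts. Thinning drew 1000000 counts per cell. Each group is 1 sample of unknown mice, so no p-value or standard error was computed, and genes were called by size of difference only. On simulated data the rule was checked for recovery of changed genes. The simulation drew all cells from a shared profile, without title runs or the uneven detection of genes in these cells. It therefore does not measure false calls here. Named genes were the 15 largest called in each direction, up to 4 members with the largest difference from each of 41 lists, and a preset group. Some members are not reported here. Other members of the lists are given by count. Apoe, Timp4, Arl4d, Tubb2a, Map6, Plxna2, Grm7, Pde4a, Smarca4, Cacna1a, Trpc6 and Pdzd2 are exceptions, named after their values were seen. The cells, lists and rules were chosen with earlier results of these data known. Gene positions and exon overlaps are from GENCODE vM21, and promoter sequences from RefSeq. Python 3.11.15, numpy 2.4.6, pandas 2.3.3 and scipy 1.17.1 were used. Intervals hold counting error only, and those on shares treat cells as independent draws. In all, 23 alternatives were run, 4 of them chosen after seeing the data.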

Additional observations from a re-analysis of the deposited data

How the results depend on the processing

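Of the measured genes, 1.5% were higher after KA and 10.6% lower. The higher share was 0.307% with a pseudocount of 10, 0.732% with no filter, 2.47% with the filter at 3, 3.39% with the authors' normalized signal, 0.435% when centred on the median counted gene of each cell and 4.90% with pooled counts. It was 2.63% in cells labelled as passed, 3.17% without the first and last cell of each run, 3.17% in cells with at least 3000 genes and 7.06% without cells with at least 0.1% microglia counts. Leaving out a run of titles gave 1.58% to 7.38%, with 7.38% without KA M209 to M216, where only the later titles remain to be met, and 2.29% without saline M241 to M264. Relative to the median difference the share was 4.13%, in cells with 2500 to 5000 genes 8.13% and without the cells rich in microglia markers 4.12%. The lower share was 1.82% with a pseudocount of 10, 5.16% with no filter, 14.6% with the filter at 3, 18.4% with the authors' signal, 21.6% when centred and 4.96% relative to the median difference. Without a filter the counts stayed at 117 and 826 and only the genes measured grew, to 15993. A larger pseudocount tends to shrink differences, although that of Gad1 rose from 0.64 to 0.81 with a pseudocount of 10. The cause of the other changes was not tested.

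Single genes were followed through the alternatives for 41 of the named genes, those with the largest differences in each direction and a preset group. Other called genes named from the lists, such as Junb, Nr4a3 and Ppp3cb near the limit of a call, were not part of this check. Of the genes followed, 35 were called, and 25 of these differed by at least 2 in the same direction under all 23 alternatives. The other 10 came closer to 0 in at least 1, Pdyn in 5 and Penk in 4. The list of immediate early transcription factors had medians from -3.72 to -1.49, neuropeptides and granins from 0.52 to 1.83, and granule cell markers from -2.56 to -0.32. Without KA M209 to M216, Penk (1.80) and Synpr (-1.69) came closer to 0 than 2. No paired analysis was possible because the labels give no replicate numbers. Depth was at least 1747042 counts per cell, and variation between mice was not measured.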
